A study of Mus musculus with 6 samples.

Results

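The 8 genes Pafah1b1, Nde1, Ndel1, Dync1h1, Dctn1, Ywhae, Kif2a and Kif5c encode LIS1, its partners, the dynein motor and 2 kinesins, and most of them are known from human disorders of cortical folding such as lissencephaly, the smooth brain. They were chosen by symbol, and all 8 of 8 were found among the 24041 genes of the deposited count table. The libraries came from GFP-sorted cells of mouse cerebral cortices that had been electroporated, that is, loaded with plasmid DNA by electric pulses. The control group of 3 libraries received GFP with wild-type PRPF6, and the other group of 3 libraries received GFP with mutant PRPF6. Cells of both groups thus carry added PRPF6, a splicing protein of the tri-snRNP, and the plasmid species, the promoter, the mouse strain and the age are not stated in the labels. Wild-type replicates 1 to 3 are called W1, W2 and W3 here, and mutant replicates 1 to 3 M1, M2 and M3. Since the labels name no animals, the spread behind each p-value is that of these 6 libraries and may be technical.

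LIS1 is a protein that holds the microtubule motor cytoplasmic dynein in an active state. NDE1 and NDEL1, a pair of closely related scaffolds, bring LIS1 to dynein, and the dynactin complex links the motor to its cargo. In the developing cortex this machinery takes part in moving the nuclei of radial glia (the neural stem cells). It also orients the mitotic spindle and pulls the nucleus forward in migrating neurons. The protein 14-3-3 epsilon, made from Ywhae, binds phosphorylated NDEL1. Loss of PAFAH1B1 alone gives lissencephaly, and its loss together with YWHAE in a larger deletion gives the more severe Miller-Dieker syndrome. Kinesins of the KIF5 family carry cargo in the opposite direction to dynein, and KIF2A takes microtubules apart at their ends.

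Libraries held 45115122 to 60600617 expected counts, the read numbers that RSEM assigns to each gene. Levels are given as CPM, which puts all libraries on the same total, with TMM factors of 0.972 to 1.02, so that 1 count was worth 0.0164 to 0.0228 CPM. All 8 markers of cortical identity were measured, with a summed level of 2187 to 3580 CPM in wild-type and 1134 to 2734 CPM in mutant libraries. Prpf6 itself was at 166, 124 and 132 CPM in W1 to W3 and at 131, 145 and 125 CPM in M1 to M3. W3 stood apart by 17152 CPM of red blood cell markers and 1918 CPM of meningeal fibroblast markers, against at most 2873 and 209 CPM in the other libraries. M2 had the most microglia marker RNA, 892 CPM against 34.5 to 320 CPM in the others. M1 had the lowest cortical identity sum (1134 CPM) and was least like the rest, with Spearman correlations across genes of 0.922 to 0.939 with each other library, against 0.945 to 0.970 among the other 5.

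None of the 8 genes differed between the groups beyond the spread of the libraries. All 8 had an adjusted p of 1.00 (Benjamini-Hochberg, edgeR quasi-likelihood test) over 14451 tested genes, of which 0 (0% of those tested) were called. DESeq2 called 10 genes, none of them a member, but gave 11213 of the 14451 genes no adjusted p. Among these were Ndel1 and Kif2a, which it thus could not call. At an unadjusted p under 0.05 stood 0 of the 8, against 489 (3.38%) of all genes, 2.18% higher and 1.2% lower with mutant PRPF6. The excess of higher genes, 315 against 174, turned round without M2, with 374 higher and 642 lower. In 0 of the 8 were the groups free of overlap, that is, with M1 to M3 all above or all below W1 to W3, against 9.14% of all tested genes, 4.6% with M1 to M3 above and 4.54% with them below. The fitted log2 difference, mutant minus wild-type, was above 0 for 3 and below 0 for 5 of the 8, with a median of −0.034, beside 49.8% above 0 and a median of −0.0013 over all tested genes. Without 1 library the median of the 8 ran from −0.13 (without W2) to 0.011 (without W3). The 95% interval of the difference lay between 0.5-fold and 2-fold for all 8 genes, and for 45.6% of all tested genes. The standard errors of the 8 were 0.16 (Ywhae) to 0.26 (Kif5c) log2 units, against a median of 0.34 over all tested genes. The 2 figures thus do not compare genes measured equally well. A difference in level here can be fewer cells of a type or less RNA per cell, which bulk libraries cannot tell apart. Over the 6 libraries the highest value was 1.33 times the lowest for Kif2a and 1.39 times for Pafah1b1 and Ywhae, the least variable of the 8, and 2.06 times for Dync1h1 and Kif5c, the most variable.

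**Figure D1:**
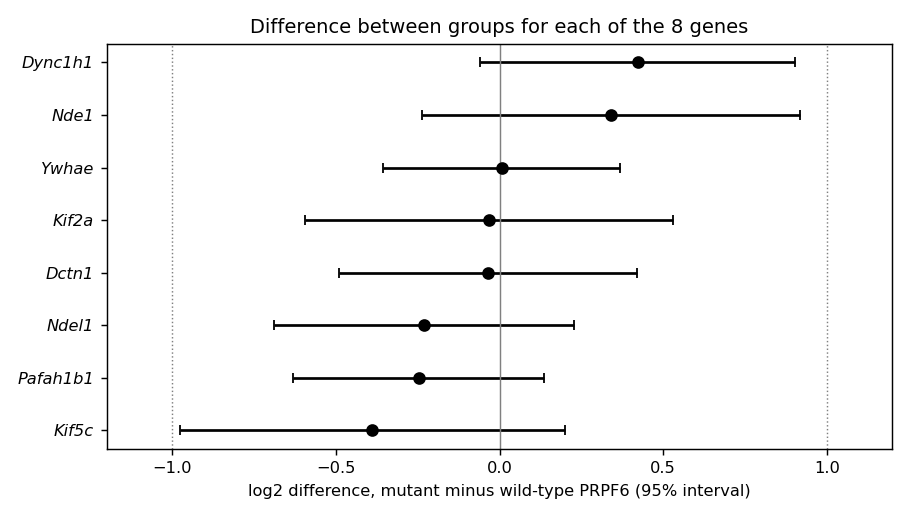
Fitted log2 difference (horizontal axis, mutant minus wild-type PRPF6) of each gene, with its 95% interval from edgeR; dotted lines mark 0.5-fold and 2-fold. Every interval crosses 0 and stays between the dotted lines, from Kif5c at −0.39 to Dync1h1 at 0.42.

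Pafah1b1 (chromosome 11, 74673949 to 74724670, minus strand, GRCm38) encodes LIS1, the dosage-sensitive gene of classical lissencephaly. It was at 107, 96.3 and 91.6 CPM in W1 to W3 and at 94.1, 76.8 and 77.6 CPM in M1 to M3. M2 and M3 lay below every wild-type library, while M1 lay inside the wild-type range. The group means were 98.3 ± 7.91 CPM (wild-type) and 82.8 ± 9.78 CPM (mutant), with the SD over n = 3. The log2 difference was −0.25 ± 0.17 (SE), that is 0.842-fold with a 95% interval of 0.646 to 1.10. Without 1 library the log2 difference ran from −0.35 (without M1) to −0.18 (without W1).

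Nde1 (chromosome 16, 14163275 to 14192928, plus strand) encodes the scaffold whose loss leaves too few cortical progenitors and a very small, smooth brain. W1 to W3 gave 125, 193 and 131 CPM for it, and M1 to M3 gave 148, 169.6 and 250.3 CPM. The groups overlapped through W2, and M3 was the highest of the 6 libraries. The log2 difference was 0.34 ± 0.25 (SE), from 149.7 ± 37.9 to 189 ± 53.8 CPM (SD, n = 3 each), and the interval ran from 0.848-fold to 1.89-fold. Without M3 the log2 difference was 0.085, and without W2 it was 0.56.

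Ndel1 (chromosome 11, 68821434 to 68871858, minus strand) encodes the related scaffold that acts with LIS1 in migrating neurons. It was at 97.7, 63.6 and 86.1 CPM in W1 to W3 and at 72.5, 66.5 and 71.9 CPM in M1 to M3. The mutant libraries lay close together and within the wild-type range, whose lowest and highest values enclosed them. The means were 82.4 ± 17.3 and 70.3 ± 3.32 CPM (SD, n = 3 each), and the log2 difference was −0.23 ± 0.20 (SE). It was −0.089 without W1 and −0.39 without W2.

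Nde1 and Ndel1 differed in sign but neither differed between the groups by the test. Scaled by exon length, Nde1 made up 56.5%, 75.5% and 60.6% of the summed level of both genes in W1 to W3. The share was 67.5%, 72.1% and 77.9% in M1 to M3, so that the ranges of the groups overlapped. The means were 64.2% ± 9.998 in wild-type and 72.5% ± 5.23 in mutant libraries (SD, n = 3 each). A difference in this share was not tested. Nde1 was the more abundant of the pair in every library.

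**Figure D2:**
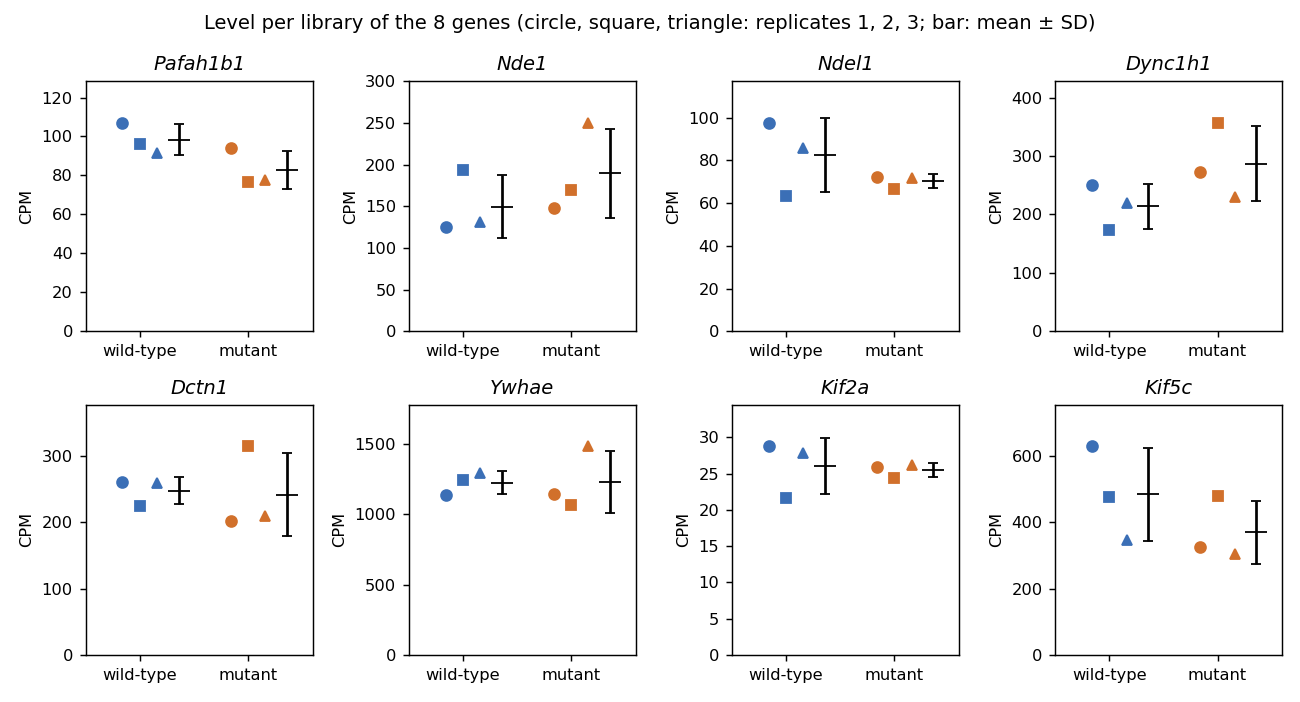
CPM (vertical axes, each from 0) of the 8 genes in wild-type (blue) and mutant (orange) libraries; symbols give the replicate and bars the mean ± SD of 3 libraries. The groups overlap in every panel. Among the separate high points are M3 for Nde1 (250.3 CPM) and Ywhae (1481 CPM) and M2 for Dync1h1 (357 CPM) and Dctn1 (315 CPM). W1 is such a point for Kif5c (629 CPM).

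Dync1h1 (chromosome 12, 110601452 to 110666945, plus strand) encodes the heavy chain of cytoplasmic dynein, the ATP-driven motor subunit itself. W1 to W3 were at 249.9, 173 and 219 CPM and M1 to M3 at 272, 357 and 231 CPM. Only M3 lay inside the wild-type range, below W1. The log2 difference of 0.42 ± 0.21 (SE) was the largest of the 8 in size, from 214 ± 38.6 to 287 ± 64.4 CPM (SD, n = 3 each), with an interval of 0.960-fold to 1.87-fold. The unadjusted p of edgeR's test was 0.0780, and it was 0.0322 without M3 (adjusted p = 1.00). Without M2 the log2 difference was 0.23, without W2 it was 0.29.

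Dctn1 (chromosome 6, 83165920 to 83200117, plus strand) encodes p150Glued, the dynactin subunit that binds microtubules and the dynein intermediate chain. It was at 261, 224 and 259 CPM in W1 to W3 and at 202, 315 and 209.9 CPM in M1 to M3. M2 was above every wild-type library and the other mutant libraries were below all of them. The means were 248 ± 20.7 and 242 ± 63.1 CPM (SD, n = 3 each), and the log2 difference of −0.036 ± 0.20 (SE) was −0.27 without M2 and 0.079 without M1, so that its sign rested on single libraries.

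M2 was thus the highest library for both Dync1h1 and Dctn1. In that library the 1360 tested genes with over 10000 exon bases, which include Dync1h1 but not Dctn1, had a median log2 level 0.17 above their 6-library mean, and the 1863 genes with under 2000 exon bases a median of −0.14. In W1 the same medians were 0.17 and −0.052, and in M3 they were −0.13 and 0.11. The part of transcript length in the levels of Dync1h1 was not tested.

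Ywhae (chromosome 11, 75732869 to 75765845, plus strand) was at 1138, 1242 and 1292 CPM in W1 to W3. M1 to M3 were at 1140.3, 1068 and 1481 CPM, and so held both the lowest and the highest of the 6 values. The means, 1224 ± 78.5 and 1229 ± 220.5 CPM (SD, n = 3 each), gave a log2 difference of 0.0061 ± 0.16 (SE), whose 95% interval of 0.782-fold to 1.29-fold was the narrowest of the 8 on the log2 scale. Without M3 the log2 difference was −0.15.

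Kif2a (chromosome 13, 106958996 to 107022126, minus strand), a microtubule-depolymerising kinesin mutated in a cortical malformation, was at 28.7, 21.6 and 27.8 CPM in W1 to W3. M1 to M3 were at 25.9, 24.4 and 26.2 CPM, all within the wild-type range. The log2 difference was −0.032 ± 0.24 (SE), from 26.1 ± 3.86 to 25.5 ± 0.967 CPM (SD, n = 3 each). Kif2a shares 1229 exon bases with Dimt1 on the opposite strand, and Dimt1 was at 35.0 to 49.5 CPM. The strand setting of the counting is not given in the sources used here, so reads from that overlap cannot be assigned with certainty. Nde1 shares 77 exon bases with Marf1 (5.68 to 22.6 CPM) in the same way. The expected counts of all 8 genes were exactly whole numbers (tolerance 0) in all 6 libraries.

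Kif5c (chromosome 2, 49619298 to 49774778, plus strand) encodes a neuronal kinesin-1 heavy chain, a motor of transport along axons that is also mutated in cortical malformations. It was at 629, 476 and 347 CPM in W1 to W3 and at 326, 479 and 305 CPM in M1 to M3. M1 and M3 lay below every wild-type library and M2 between W1 and W2. The log2 difference was −0.39 ± 0.26 (SE), from 484 ± 141 to 369.9 ± 94.8 CPM (SD, n = 3 each), with the widest interval of the 8 on the log2 scale, 0.508-fold to 1.15-fold. It was −0.16 without W1, −0.57 without W3 and −0.62 without M2. The unadjusted p of edgeR's test, 0.166 with all libraries, was 0.0478 and 0.0459 in the last 2 fits, with adjusted p of 1.00 and 0.717.

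**Figure D3:**
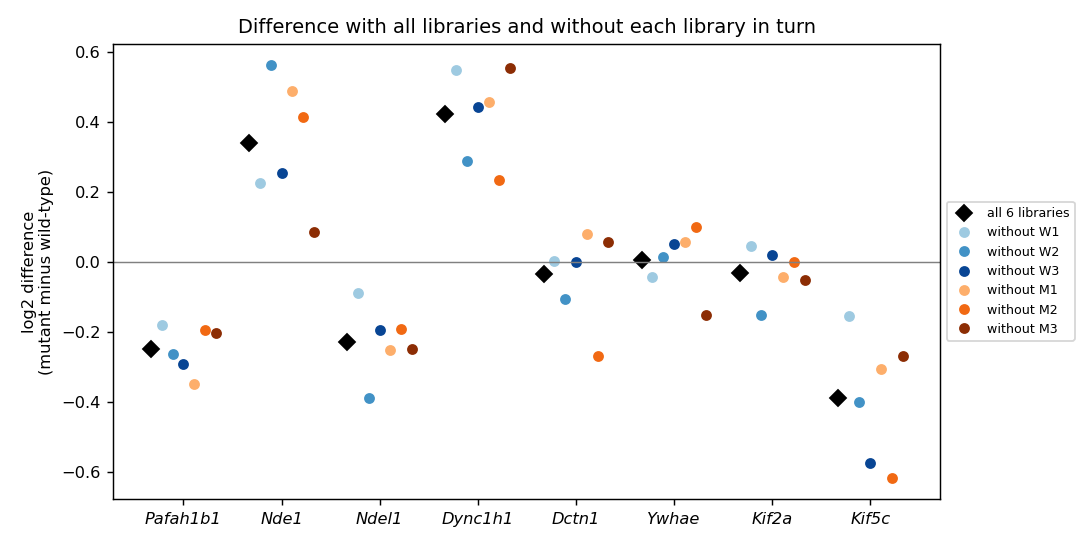
Fitted log2 difference (vertical axis, mutant minus wild-type PRPF6) of each gene with all 6 libraries (diamonds) and without each library in turn (circles). Pafah1b1, Nde1, Ndel1, Dync1h1 and Kif5c keep their sign in each fit, while Dctn1, Ywhae and Kif2a lie on both sides of 0.

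Levels of different genes were compared as CPM per kilobase, using all annotated exon bases of a gene. In the wild-type group the order of mean levels per kilobase was Ywhae at 477 ± 30.6, Kif5c at 67.8 ± 19.8, Nde1 at 46.7 ± 11.8, Dctn1 at 38.1 ± 3.17, Ndel1 at 25.3 ± 5.33, Dync1h1 at 13.7 ± 2.46, Pafah1b1 at 10.2 ± 0.822 and Kif2a at 4.08 ± 0.604 (SD, n = 3 each). The ranges of Kif5c and Nde1, of Nde1 and Dctn1, and of Dync1h1 and Pafah1b1 overlapped over the wild-type libraries, so these neighbours were not separated. With the length of the longest coding transcript, a scale added after the data were seen, Pafah1b1 (16.9 CPM per kilobase) stood above Dync1h1 (14.9) and the other 6 kept their order. In the mutant group Nde1 (59.1 ± 16.8 CPM per kilobase) and Kif5c (51.8 ± 13.3) stood in the opposite order of means, within their spread (SD, n = 3 each).

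The levels of Nde1 and Kif5c were set beside markers of the cell cycle and of neurons, a pairing chosen after the values were seen. The summed level of 17 markers of the G2 and M phases was 2685, 3868 and 2507 CPM in W1 to W3 and 2041, 3097 and 5204 CPM in M1 to M3. M3, W2 and M2 were, in that order, the highest libraries for these markers and also for Nde1. The remaining libraries stood in opposite orders, W1, W3 and M1 for the markers and M1, W3 and W1 for Nde1 (148, 131 and 125 CPM). Fitted differences were above 0 for 15 of the 17 markers, with a median of 0.19, and 0 of the 17 were without a count in all libraries. Of 11 mature neuron markers 10 had a difference below 0 (median −0.65), and their sum was 980, 669.8 and 694 CPM in W1 to W3 and 418, 613 and 369.8 CPM in M1 to M3. W1 was highest and M3 lowest both for these markers and for Kif5c. Between these ends the order was W3, W2, M2 and M1 for the markers and M2, W2, W3 and M1 for Kif5c. All 11 newborn neuron markers were below 0 (median −0.71). Their sum was 9624, 6085 and 6600 CPM in W1 to W3 and 4271, 6257 and 5493 CPM in M1 to M3. All 13 radial glia markers were above 0 (median 0.60), with sums of 2800, 3473 and 2407 CPM in W1 to W3. In M1 to M3 the radial glia sums were 5686, 3475 and 5103 CPM, so that M2 stood level with W2. Medians without single libraries were not computed for any of these marker lists. The part of the mix of cells in the levels of Nde1 and Kif5c was not tested.

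**Figure D4:**
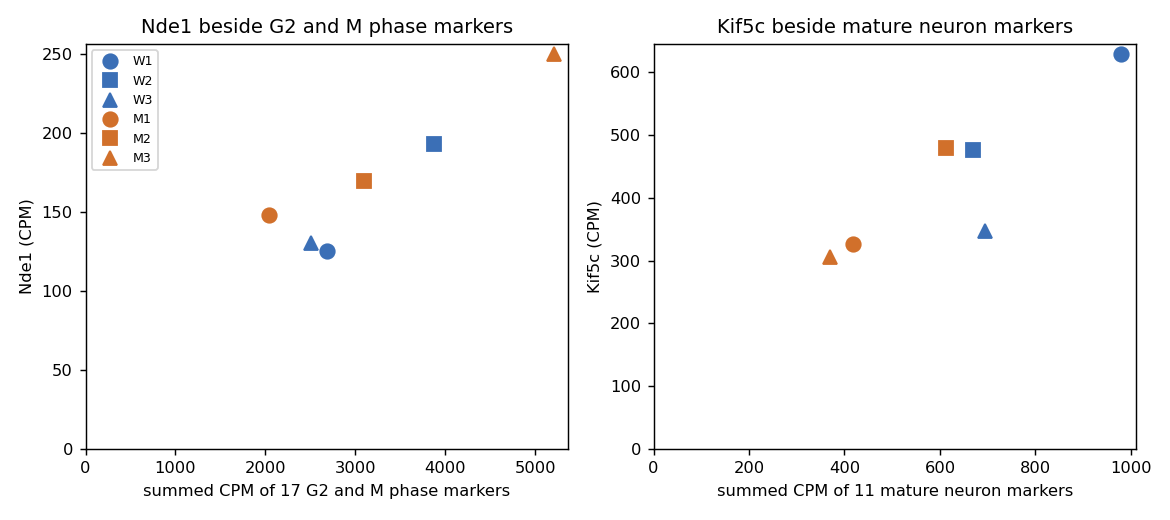
Nde1 (left) and Kif5c (right), in CPM on the vertical axes, against the summed CPM of 17 G2 and M phase markers and of 11 mature neuron markers; each point is a library, blue for wild-type and orange for mutant, with the replicate given by the symbol (W1 to W3, M1 to M3). M3 has the highest Nde1 (250.3 CPM) and W1 the highest Kif5c (629 CPM).

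Other subunits of cytoplasmic dynein did not differ by the test either. Of the 14 tested subunits of dynein-1, Dync1h1 included, 5 had a log2 difference above 0 and 9 below (median −0.11), and 0 were called. The median was −0.0048 without M2, −0.035 without W3, −0.18 without M1 and −0.19 without W1. The intermediate chain genes, whose products join the heavy chain to dynactin, were Dync1i2 at 173 ± 30.5 and 146 ± 14.9 CPM and the neuronal Dync1i1 at 13.2 ± 5.62 and 5.17 ± 3.54 CPM (wild-type first, SD, n = 3 each). For Dync1i1 all mutant libraries were below all wild-type libraries, with a log2 difference of −1.35 ± 0.71 (SE). Such a lack of overlap held for 2 of the 14 subunits, both lower, against 4.54% of all tested genes. The light intermediate chains, which hold cargo adaptors, were Dync1li1 at 90.8 ± 11.4 and 103 ± 13.6 CPM and Dync1li2 at 188 ± 33.8 and 161 ± 15.7 CPM. The heavy chain was the subunit with the smallest unadjusted p (0.0780, edgeR).

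Of 12 dynactin subunits 3 were above and 9 below 0 (median −0.055), with 0 called. Without W3 it was 6 of the 12 that lay above 0 (median −0.011), and the median was −0.025 without M1 and −0.10 without W1 or M3. Dctn2, which encodes the dynamitin subunit of the dynactin shoulder, was at 245, 259 and 306 CPM in W1 to W3 and at 207, 225 and 228 CPM in M1 to M3. These groups did not overlap, as was the case for 2 of the 12 subunits, both lower, against 4.54% of all tested genes, and the log2 difference of Dctn2 was −0.29 ± 0.14 (SE). Dynein adaptors, proteins that tie the motor to its cargo, were above 0 in 7 and below in 9 of 16 tested genes (median −0.043). That median moved by over 1.5 times whichever library was left out, and ran from −0.27 (without M2) to 0.065 (without W1). At an unadjusted p under 0.05 stood 2 of the 16, both lower, against 1.2% of all tested genes lower by that rule. They were Hook2 and, named after its values were seen, Bicd1, with log2 differences of −0.63 ± 0.23 and −0.59 ± 0.22 (SE). Hook2 was at 44.5, 36.5 and 37.4 CPM in W1 to W3 (edgeR adjusted p = 1.00). In M1 to M3 it was at 23.8, 29.5 and 23.3 CPM, without overlap. Groups without overlap were found for 2 of the 16 adaptors, both lower, against 4.54% of all tested genes.

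Partners of LIS1, NDE1 and NDEL1 were above 0 in 4 and below in 8 of 12 genes (median −0.14), and 0 were called. Above 0 were 6 of the 12 without M1 (median −0.011) and 2 without M3 (−0.20), and the median was −0.053 without W1. LIS1 also forms an acetylhydrolase with the products of Pafah1b2 and Pafah1b3. Pafah1b2 was at 439 ± 47.5 and 395 ± 12.3 CPM, and Pafah1b3 at 163 ± 8.85 and 138 ± 11.95 CPM (wild-type first, SD, n = 3 each). The log2 differences were −0.15 ± 0.14 and −0.25 ± 0.14 (SE). The groups did not overlap for 1 of the 12 partners, Pafah1b3, which was lower, against 4.54% of all tested genes lower by that rule. Nudc, a chaperone that stabilises LIS1, was at 349 ± 18.5 and 329.8 ± 68.2 CPM.

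The 7 genes of the 14-3-3 family, adaptors that bind phosphorylated proteins, were above 0 in 3 and below in 4 (median −0.10), and 0 were called. The median was −0.043 without W3 and −0.065 without M1, and 1 of the 7 was above 0 without W1 or without M3. Ywhae made up 31.3%, 31.2% and 31.7% of the family's level per kilobase in W1 to W3 and 30.5%, 30.5% and 33.8% in M1 to M3. Ywhaz was at 1554 ± 54.6 and 1445 ± 96.0 CPM, and Ywhag at 332 ± 42.1 and 298 ± 40.3 CPM. Sfn, an epithelial member of the family, had the smallest unadjusted p of the 7 (0.178, edgeR). It was at 0, 1.56 and 12.9 CPM in W1 to W3 and at 0.448, 1.27 and 0.0912 CPM in M1 to M3, so that its level rested on W3.

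In the mouse Pafah1b1 and Ywhae lie on the same chromosome, and the genes of the Miller-Dieker interval lie between them in the order of the annotation. Of 24 tested genes of that interval, both ends included, 8 were above and 16 below 0 (median −0.083), with 0 called and 1 without overlap between groups, higher with mutant PRPF6, against 4.6% of all tested genes. Single libraries moved this median, to −0.00046 without M1 (12 of 25 above 0), −0.021 without W3 (11 of 24), −0.031 without M3, −0.17 without W2 and −0.19 without M2. Prpf8, which encodes the central protein of the U5 snRNP and thus a neighbour of PRPF6 in the tri-snRNP, was at 170.2 ± 42.6 and 217 ± 51.5 CPM, a log2 difference of 0.35 ± 0.24 (SE). The smallest unadjusted p of the interval was that of Hic1, a transcriptional repressor (0.111, edgeR). Hic1 was at 14.1 CPM in W3, the library with the most meningeal marker RNA, and at 0.0861 to 3.31 CPM in the others.

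Kif5c was the most abundant of the 3 kinesin-1 heavy chains per kilobase, with 48.5% to 62.3% of their summed level in wild-type and 49.7% to 57.6% in mutant libraries. Kif5a, the other neuronal heavy chain, was at 117 ± 35.3 and 84.7 ± 45.2 CPM and the ubiquitous Kif5b at 266 ± 14 and 249.97 ± 29.8 CPM (wild-type first, SD, n = 3 each). Their log2 differences were −0.47 ± 0.38 and −0.089 ± 0.14 (SE). With the light chains, which bind cargo, 2 of the 7 kinesin-1 genes were above and 5 below 0 (median −0.29), and 0 were called. This median was −0.16 without W1, −0.13 without W3 and −0.095 with a replicate block. The light chain gene Klc1 had the smallest unadjusted p of the 7 (0.0687, edgeR). It was at 369, 318 and 393 CPM in W1 to W3 and at 300.3, 288 and 297 CPM in M1 to M3. The groups did not overlap for 1 of the 7, Klc1, which was lower, against 4.54% of all tested genes.

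Among the kinesin-13 genes, to which Kif2a belongs, the mitotic Kif2c was more abundant than Kif2a per kilobase (32.2 against 4.08 in wild-type and 34.5 against 3.99 in mutant libraries). Kif2c was at 140.4 ± 27.6 and 151 ± 103 CPM (SD, n = 3 each), and the log2 difference was 0.10 ± 0.48 (SE). Kif2b had 0 counts in all 6 libraries, where a count of 0 allows up to 3 counts, that is 0.0492 to 0.0684 CPM. Kif24 had the smallest unadjusted p of the 3 tested kinesin-13 genes (0.743, edgeR). Of 31 other tested kinesin genes 20 were above and 11 below 0 (median 0.086), with 0 called. For these kinesins the median was 0.0098 without M3, 0.032 without M2, 0.052 without W3, 0.17 without M1 and 0.016 with a replicate block. The groups did not overlap for 3 of the 31, against 9.14% of all tested genes, and 3 stood at an unadjusted p under 0.05, against 3.38%. The latter were Kifap3, the adaptor of kinesin-2, with −0.59 ± 0.18, and, named after their values were seen, the kinesin-2 motor Kif3a with −0.46 ± 0.19 and the mitotic Kif18b with 0.80 ± 0.30 (log2 difference, SE). Kifap3 was at 112, 105 and 101 CPM in W1 to W3 and at 60.5, 83.5 and 67.1 CPM in M1 to M3, without overlap.

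**Figure D5:**
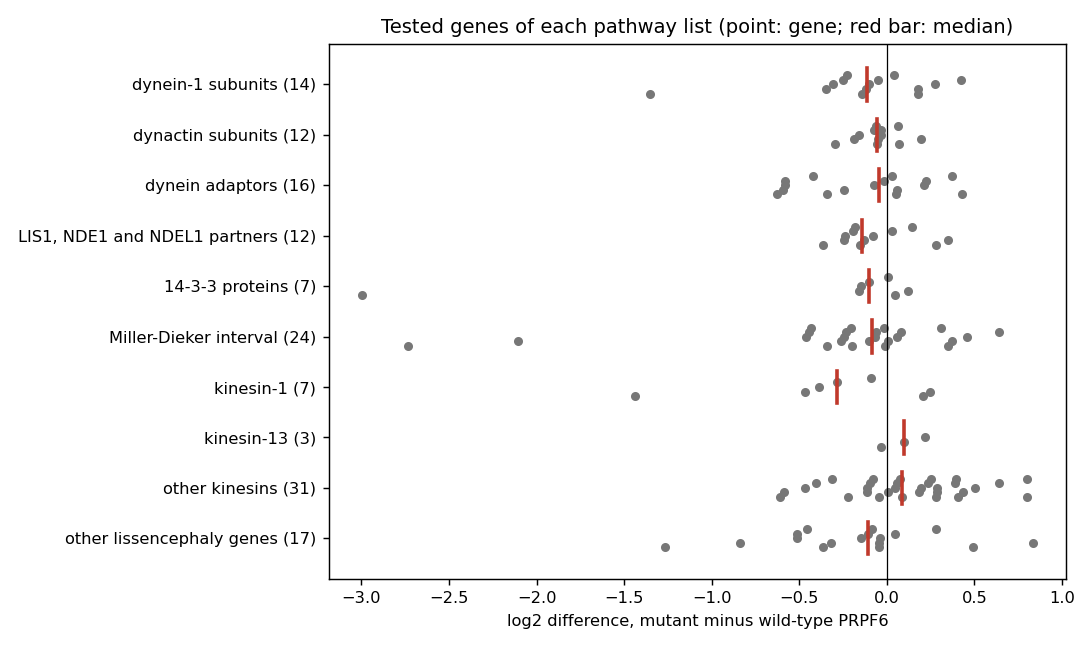
Fitted log2 difference (horizontal axis, mutant minus wild-type PRPF6) of each tested gene (grey points) in the lists around the 8 genes, with the number tested in brackets and the median as a red bar. Medians run from −0.29 for kinesin-1 (−0.095 with a replicate block) to 0.10 for kinesin-13, and the points far to the left are genes of low level such as Sfn and Hic1.

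Other genes of lissencephaly and pachygyria were above 0 in 4 and below in 13 of 17 (median −0.11), with 0 called. Without W3, the library with the most blood and meningeal marker RNA, 8 of the 17 were above 0 (median −0.014), and the median was −0.20 without W1, −0.18 without W2 and −0.17 without M2. Dcx, which encodes the microtubule-binding doublecortin of migrating neurons, was at 285 ± 49.4 and 207 ± 92.2 CPM, a log2 difference of −0.46 ± 0.30 (SE). Tuba1a, the main alpha-tubulin of young neurons, gave −0.15 ± 0.16 (SE), from counts partly shared with other tubulin genes. At an unadjusted p under 0.05 stood 3 of the 17, 1 higher and 2 lower, against 3.38% of all tested genes. Reln, the secreted guide of cortical layering, was at 48.1, 59.8 and 45.3 CPM in W1 to W3 and at 23.7, 42.6 and 19.2 CPM in M1 to M3, without overlap. The other lower one was the reelin receptor gene Vldlr, named after its values were seen, with a log2 difference of −0.52 ± 0.21 (SE). The 1 higher gene of the 17 is not named here, so the named genes do not sum up the list. The groups did not overlap for 2 of the 17 genes, both lower, against 4.54% of all tested genes.

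The genes whose pattern over the 6 libraries was most like that of a member of the 8 were taken from 11282 candidates, by the root mean square difference of log2 CPM centred on its mean. For Pafah1b1 they were Glt25d1 (0.022), Zfand6 (0.041) and Ift81 (0.043 log2 units). Nde1 was nearest to Smc4, a condensin subunit of mitotic chromosomes (0.057). Smc4 was at 158, 257 and 177 CPM in W1 to W3 and at 179.7, 213 and 308 CPM in M1 to M3, with M3, W2 and M2 highest in that order, as for Nde1. Ndel1 was nearest to Use1 (0.051), Dctn1 to Zxda (0.052), Ywhae to the mitochondrial phosphate carrier Slc25a3 (0.036), Kif2a to Coa7 (0.036) and Kif5c to Phf3 (0.076). With 6 libraries and so many candidates a close match is a description of these libraries only.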

How the data were processed

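The authors deposited expected counts by gene symbol, which the submitters' processing notes credit to RSEM and the mouse build mm10. RSEM version, aligner, annotation and strand setting: not given in the sources used here. Per the labels, cDNA was amplified from picogram amounts of RNA, so reads are not independent molecules and precision comes from the replicates. Expected counts were rounded, filtered with filterByExpr (14451 of 24041 genes kept), scaled by TMM and tested in R 4.3.3 with edgeR 4.0.16, using its robust two-sided quasi-likelihood test with a term for group and no other. P-values were adjusted by Benjamini-Hochberg, and 0.05 was the threshold. The standard error is the log2 difference divided by the root of F, and 95% intervals use the test's degrees of freedom. Coordinates and exon lengths are from GENCODE M21 (GRCm38), matched by symbol. Of the list genes 2 were found under older symbols and 1 was not found.

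The members and lists were chosen with earlier results of these data known. Named genes were the members, a fixed set of relatives, the tested gene of smallest unadjusted p in each list, genes overlapping a member, and the nearest genes in pattern. Alternatives were DESeq2 1.42.0 (and its size factors), limma-voom (limma 3.58.1), upper-quartile factors, 2 other filters, plain instead of robust estimation, 0.1 as the adjusted threshold, a replicate block and leaving out each library. The steps were tested on simulated data. Protein sequences were not used here. Some results for single genes are not reported here.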

Additional observations from a re-analysis of the deposited data

How the results depend on the processing

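The count of called genes was 0 in each alternative run with edgeR or limma-voom, adjusted p under 0.1 included, and 10 with the DESeq2 Wald test, all higher with mutant PRPF6 and none of them among the 8 genes. At an unadjusted p under 0.05 stood 489 genes with edgeR, 642 with DESeq2, 551 with limma-voom, 383 to 1016 without 1 library (1016 without M2, 374 higher and 642 lower) and 307 with a replicate block. The deposited column names carry the same non-consecutive numbers in both groups, so a pairing of libraries is possible. Deviations of same-numbered libraries correlated across genes by 0.054, 0.061 and −0.26, and those of differently numbered libraries by −0.25 to 0.26. With 3 libraries in each group, these values cannot decide whether same-numbered libraries form pairs. The main fit had no term for the number, and the replicate block was run as an alternative. Over 14 alternatives the 8 genes had 112 values, of which 110 had an adjusted p (DESeq2 gave none for Ndel1 and Kif2a), 0 passed its threshold and 11 turned in sign, all of Dctn1, Ywhae or Kif2a. Without 1 library the log2 difference of Dctn1 ran from −0.27 to 0.079 (above 0 without W1, W3, M1 or M3), that of Ywhae from −0.15 to 0.099 and that of Kif2a from −0.15 to 0.046. Ywhae was also at −0.024 with upper-quartile factors, −0.0066 with the replicate block and −0.011 with limma-voom. Of the list medians, that of the 8 genes ran from −0.13 to 0.011 when 1 library was left out (above 0 without W3 or M1), that of dynein adaptors from −0.27 to 0.065 (without W1), and that of the 3 kinesin-13 genes ran from −0.052 (without M3) to 0.40 and was −0.022 with the replicate block. The cause of these turns was not tested. The median standard error over all genes, 0.34 log2 units, limits what 3 libraries against 3 can show.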
